A study of Mus musculus with 7 samples.

Results

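The 10 genes described here encode interleukin 5 (IL-5), the receptor chains that bind IL-5 and its relatives IL-3 and GM-CSF, and the first signalling proteins behind those receptors. They were Il5, Il5ra, Csf2rb, Csf2rb2, Csf2ra, Il3ra, Jak2, Lyn, Stat5a and Stat5b, taken by symbol from a table of read counts for 24421 genes, and all 10 had enough reads to be tested. The counts come from RNA of eosinophils, granulocytes of type 2 immunity, sorted from damaged mouse muscle 3 days after a treatment labelled ntx. The sort took CD45-positive, SiglecF-positive cells negative for NK1, Ly6G and CD3e, and the design text asks what an excess of eosinophils does to muscle homeostasis, regeneration and repair. There were 3 libraries labelled WT and 4 labelled IL5-Tg. The sources used here do not name the promoter that drives the transgene, the cells that express it, or the strain and age of the mice. The series title names mdx mice, a model of Duchenne muscular dystrophy, while the genotype labels of these samples name only WT and IL5-Tg. Whether each library stands for its own mouse is not stated in the labels, and p-values here cover only the spread among these libraries, which may be technical. Values per library are listed below in the order of the replicate numbers, which only name a library.

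IL-5 is the main growth and survival factor of eosinophils. Each receptor of the family pairs a private alpha chain, which recognises 1 cytokine, with a shared beta chain that carries the signal: Il5ra, Il3ra and Csf2ra encode the alpha chains for IL-5, IL-3 and GM-CSF, and Csf2rb encodes the beta common chain. Mice have an extra beta chain gene, Csf2rb2, whose product serves the IL-3 receptor alone. The beta chain holds the tyrosine kinase JAK2, the Src family kinase LYN also acts at the receptor, and the transcription factors STAT5A and STAT5B are phosphorylated and move to the nucleus.

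The libraries held 11581365 to 20231509 reads, of which 9665093 to 17447106 were assigned to genes. All 13 listed eosinophil markers had reads, and Siglecf, the gene of the sorted surface protein, was at 251 to 648 CPM in WT and 470 to 856 CPM in IL5-Tg libraries. CPM here means reads per 1000000 reads in genes, after TMM scaling (an edgeR library size correction). Reads of macrophage, fibroblast, dendritic cell and mast cell markers were also present. WT replicate 3 stood apart, with a summed fibroblast marker level of 387 CPM against 2279 to 4890 CPM in the other 6 libraries, and 0 reads of the fibroblast genes Pdgfra and Lum. Nearly all of its 387 CPM was Pi16, which was at 230 to 371 CPM in WT and 230 to 393 CPM in IL5-Tg libraries and was named after its values were seen. WT replicate 3 also had the fewest genes detected, 10877, and the lowest summed muscle marker level, 52.9 CPM. Low counts clustered at 5, 6 and 12 reads per gene in the WT libraries against 1, 1, 1 and 4 in the IL5-Tg libraries, so the same few reads can stand for fewer RNA molecules in WT. In bulk RNA, fewer cells of a type and less RNA per cell cannot be told apart.

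Of the 10 genes 1 was called, Il5, which rose in IL5-Tg libraries, and the other 9 did not pass the test. Il5 is the gene that the IL5-Tg label names, so its call tells nothing about the other 9. Calls were made by edgeR's quasi-likelihood test at an adjusted p under 0.05 over 12428 tested genes, of which 0.410% were called in either direction, 0.338% higher and 0.0724% lower. The median log2 fold change, IL5-Tg over WT, was 0.13 over the 10 genes and 0.03 over all tested genes. Il5 was also the 1 gene of the 10 whose CPM values did not overlap between the groups, against 9.36% of all tested genes, so this count is near the background.

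**Figure D1:**
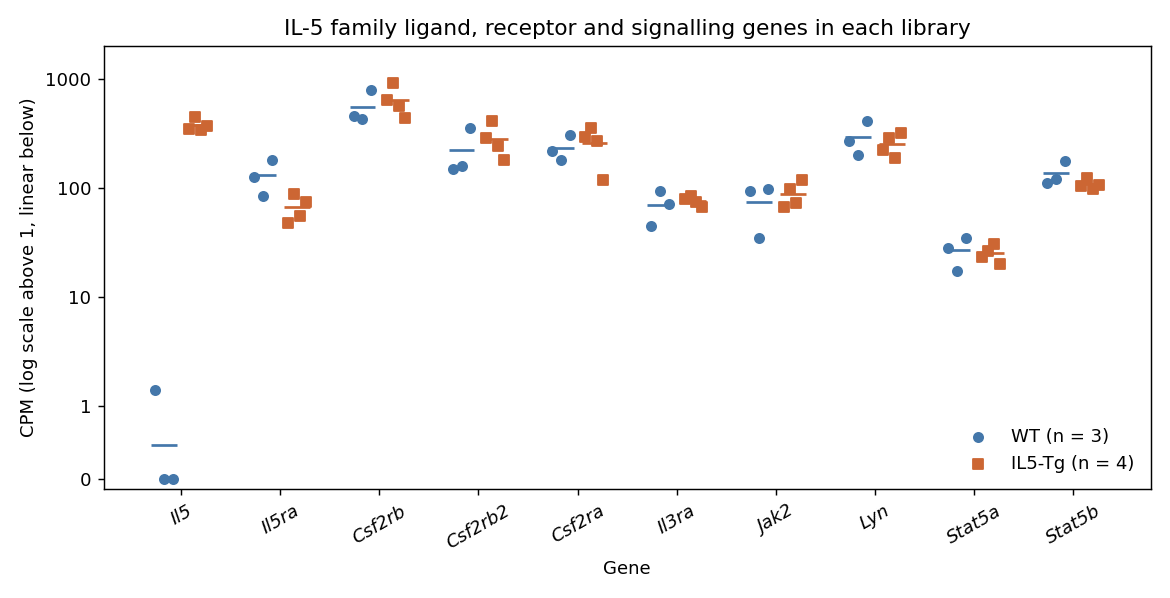
CPM of each of the 10 genes in every library, on an axis that is logarithmic above 1 and linear below it. Circles are the 3 WT libraries, squares the 4 IL5-Tg libraries, and bars the group means. Il5 separates the groups, from 0 to 1.39 CPM in WT and 338 to 447 CPM in IL5-Tg, and the other 9 genes overlap.

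Il5 encodes the ligand and lies on the plus strand of chromosome 11, from 53720794 to 53725106 (mm10, GENCODE vM21). The first 300 of the 402 bases of its coding sequence are shown because its message is what differs between the genotypes. They are the reference sequence of the GENCODE transcript, with the start codon in capitals, and whether the transgene carries exactly these bases cannot be told from the counts.
Il5: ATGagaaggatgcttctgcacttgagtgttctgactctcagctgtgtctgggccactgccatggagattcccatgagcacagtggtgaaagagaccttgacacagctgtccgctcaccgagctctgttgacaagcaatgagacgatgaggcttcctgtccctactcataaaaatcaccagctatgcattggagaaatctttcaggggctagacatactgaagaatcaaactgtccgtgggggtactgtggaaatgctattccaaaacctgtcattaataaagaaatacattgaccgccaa
None of the 1496 windows of 42 bases in the Il5 transcript, the length of 1 sequenced mate, occurs in a transcript of another annotated gene. An annotated antisense gene, Gm12214, shares 417 exon bases with it, and whether the counting used strand is not stated in the sources used here, so antisense reads could not be set apart.

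The 4 IL5-Tg libraries held 3722, 5820, 4637 and 7097 Il5 reads, equal to 349, 447, 338 and 368 CPM. Among WT libraries only replicate 1 held any, 23 reads or 1.39 CPM. Replicates 2 and 3 were at 0 reads, and 3 reads there, the floor set here for a count of 0, would be 0.317 and 0.283 CPM. If the typical low count there stands for 1 molecule, 3 molecules would be 1.90 and 3.40 CPM. All 4 IL5-Tg libraries lay within a narrow band, with a coefficient of variation of 13.2%, and far above every WT library. Il5 averaged 375 ± 49.4 CPM (SD, n = 4) in IL5-Tg against 0.463 ± 0.802 CPM (SD, n = 3) in WT. Its log2 fold change came to 9.38 ± 1.01 (SE), with a 95% interval from 7.06 to 11.7 and an edgeR adjusted p of 0.00952. Pooled over libraries and scaled, IL5-Tg had 598 times the Il5 level of WT (95% interval 398 to 943, counting error only, for reads taken as independent). The adjusted p of Il5 was 0.0541, 0.0504 and 0.0533 without IL5-Tg replicates 1, 2 and 3, at log2 fold changes of 9.46, 9.31 and 9.44, and without WT replicate 1 the fitted value was 15.23, since the remaining WT libraries then hold no read.

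T cells and group 2 innate lymphoid cells are known to make IL-5 in normal mice, and the sort left out CD3e-positive cells, while innate lymphoid cells carry no CD3. The CD3 chain genes Cd3e, Cd3d and Cd3g together had 0 to 27 reads in WT libraries and 8 to 17 reads in IL5-Tg libraries. Gata3, the transcription factor of both cell types, had 0 reads in all WT libraries and 2, 1, 0 and 7 reads in IL5-Tg replicates 1 to 4. Other genes of these cells had more reads. Il7r, the IL-7 receptor, was at 14.4, 6.96 and 0.378 CPM across the WT libraries and at 23.4, 14.4, 14.1 and 19.3 CPM across the IL5-Tg libraries, and Thy1, a surface protein gene that fibroblasts also express, was at 1.51 to 36.3 CPM and 13.6 to 56.5 CPM. Neither passed the test (edgeR adjusted p = 0.755 and 0.909). Among the 7 tested markers of these cells 4 had a log2 fold change above 0, Il7r and Thy1 among them, and 0 were called. Klrg1 was at -0.81 and Rora at -0.77 (edgeR adjusted p = 0.856 and 0.894). Il7r, Thy1, Klrg1 and Rora were named after their values were seen. Of 14 listed markers of these cells 13 were in the table, all with reads in at least 1 library, and their summed level was 124 to 174 CPM in WT and 288 to 372 CPM in IL5-Tg libraries. Il1rl1, the IL-33 receptor, was the largest single part, and without it the sum was 21.9 to 62.5 CPM in WT and 49.2 to 97.3 CPM in IL5-Tg libraries. The cells that held the Il5 RNA were not identified, and the part of these cells in the Il5 level was not tested.

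The genes beside Il5 on chromosome 11 did not pass the test. These neighbours include the type 2 cytokine genes Il4 and Il13, and 10 protein-coding genes within 250 kb of Il5 were in the table, 8 of them tested. Rad50, a DNA repair gene 13.5 kb away, averaged 8.82 ± 2.42 CPM (SD, n = 3) in WT against 12 ± 3.32 CPM (SD, n = 4) in IL5-Tg (log2 fold change 0.45, edgeR adjusted p = 0.848). Il13, which encodes a cytokine often made with IL-5, was at 7.31 ± 4.06 and 10.5 ± 4.36 CPM (edgeR adjusted p = 0.874). Il4 was at 54.5 ± 16 and 24.7 ± 8.33 CPM (log2 fold change -1.14, edgeR adjusted p = 0.254). The transcription factor gene Irf1, on the other side, was at 192 ± 50.1 and 127 ± 36.3 CPM (edgeR adjusted p = 0.616). Of the 8 tested neighbours 0 were called by edgeR, 0 by DESeq2 and 0 by limma-voom, and 1 had an unadjusted edgeR p under 0.05. Over all tested genes the shares were 0.410% called by edgeR and 9.04% with such a p, so counts of 0 and 1 among 8 genes are near the background. There were 727, 507, 608 and 493 Il5 reads for every 100 reads of its receptor gene Il5ra in the IL5-Tg libraries, and 1.11, 0 and 0 in the WT libraries.

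The other ligands of the family were near 0. Il3 had 0 reads in all 7 libraries, and Csf2, which encodes GM-CSF, had 6 reads in WT replicate 1 and 0 reads in the other 6 libraries. Neither had enough reads to be tested.

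Il5ra, the alpha chain that binds IL-5, had a lower mean in IL5-Tg libraries but did not pass the test over all genes. It lies on chromosome 6 at 106710357 to 106749037 on the minus strand (mm10, GENCODE vM21). The WT libraries held 126, 83.8 and 181 CPM of Il5ra, and the IL5-Tg libraries 47.9, 88.3, 55.6 and 74.7 CPM. The groups overlapped only between WT replicate 2, the lowest WT library, and IL5-Tg replicate 2, the highest IL5-Tg library. WT averaged 130 ± 48.8 CPM (SD, n = 3) against 66.6 ± 18.3 CPM (SD, n = 4) in IL5-Tg. The log2 fold change was -0.97 ± 0.31 (SE; 95% interval -1.67 to -0.27), with an unadjusted edgeR p of 0.0115 and an adjusted p of 0.363. Over 20 alternative settings the log2 fold change stayed negative, from -1.18 to -0.62, and the adjusted p was 0.112 to 0.999. The value was -0.62 without WT replicate 3, -0.64 with the fibroblast marker level as a covariate and -0.67 with the macrophage marker level as a covariate. Since WT replicate 3 alone was low in fibroblast markers, leaving it out and using the fibroblast covariate are not separate checks. The eosinophil markers summed to 6124 to 11540 CPM in WT and 7801 to 13870 CPM in IL5-Tg libraries, and Alox15 was the largest part of it. The eosinophil gene Ccr3 had a log2 fold change of -0.59 and Siglecf one of 0.43, and neither passed (edgeR adjusted p = 0.694 and 0.827). Among the 13 eosinophil markers 12 had a log2 fold change above 0, and 3 were called higher, against 0.338% of all tested genes. The called markers were Prg2 at 2.76, Ear1 at 3.21 and Ear6 at 3.6 (edgeR adjusted p = 0.016, 0.00311 and 0.0268). The part of eosinophil number in the Il5ra values was not tested. The earlier results that led to the choice of these genes already showed this value of Il5ra, so it is no independent evidence.

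Relative to Siglecf within the same library, Il5ra was lower in every IL5-Tg library. For every 100 Siglecf reads the WT libraries had 27.0, 33.4 and 28.0 Il5ra reads, and the IL5-Tg libraries 8.03, 10.3, 11.8 and 14.2. The groups did not overlap. WT averaged a log2 ratio of -1.77 ± 0.166 (SD, n = 3) against -3.20 ± 0.345 (SD, n = 4) for IL5-Tg, a difference of -1.43 (two-sided exact permutation p = 0.0286, the smallest that 35 splits allow, and 0.114 after adjustment over 4 ratios). The size depended on the gene in the denominator. With Ccr3, the eotaxin receptor, the counts were 9.64, 13.1 and 13 per 100 Ccr3 reads in WT and 6.78, 8.35, 9.68 and 12.1 in IL5-Tg libraries, which overlap, and the difference of the log2 ratios was -0.386 (exact permutation p = 0.171). With the eosinophil lipoxygenase gene Alox15 it was -1.58 (exact permutation p = 0.0571) and with the granulocyte transcription factor gene Cebpe -1.42 (exact permutation p = 0.0857). These 3 denominators were added after the data were seen.

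Csf2ra, the alpha chain for GM-CSF, was at 218, 178 and 303 CPM across the WT libraries and at 294, 357, 271 and 119 CPM across the IL5-Tg libraries. IL5-Tg replicate 4 was the lowest of all 7 libraries and IL5-Tg replicate 2 the highest, so the groups overlapped. The log2 fold change was 0.16 ± 0.36 (SE), with a 95% interval from -0.64 to 0.96 (edgeR adjusted p = 0.949). Il3ra, the alpha chain for IL-3, was at 44.3, 94.3 and 70.9 CPM across the WT libraries and at 78.6, 83.3, 73.3 and 66.3 CPM across the IL5-Tg libraries. The IL5-Tg values all lay within the WT range, and the log2 fold change was 0.11 ± 0.28 (SE), with a 95% interval from -0.50 to 0.72 (edgeR adjusted p = 0.955).

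The balance of the 3 alpha chains overlapped between the groups. Il5ra made up 32.4%, 23.5% and 32.6% of the reads of the 3 alpha chain genes across the WT libraries, and 11.4%, 16.7%, 13.9% and 28.7% across the IL5-Tg libraries. IL5-Tg replicates 1 to 3 were below every WT library, and IL5-Tg replicate 4 was within the WT range. The mean share was 29.5% ± 5.19 (SD, n = 3) and 17.7% ± 7.68 (SD, n = 4), a difference of -11.8 percentage points (two-sided exact permutation p = 0.0857, adjusted p = 0.171 over 4 ratios). Csf2ra held the largest share in every library, from 45.8% in IL5-Tg replicate 4 to 69.9% in IL5-Tg replicate 1. Markers of macrophages, which also carry the GM-CSF receptor, summed to 4063 to 5602 CPM in WT and 5025 to 6170 CPM in IL5-Tg libraries. Adgre1, also listed as an eosinophil marker, was the largest part, at 1286 to 2457 CPM in WT and 1555 to 2234 CPM in IL5-Tg. Across the WT libraries C1qa was at 373, 674 and 68.4 CPM, against 349 to 776 CPM in IL5-Tg. Csf1r was not low in WT replicate 3, at 438, 921 and 784 CPM across the WT libraries. C1qa and Csf1r were named after their values were seen. The part of macrophages in this balance was not tested.

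**Figure D2:**
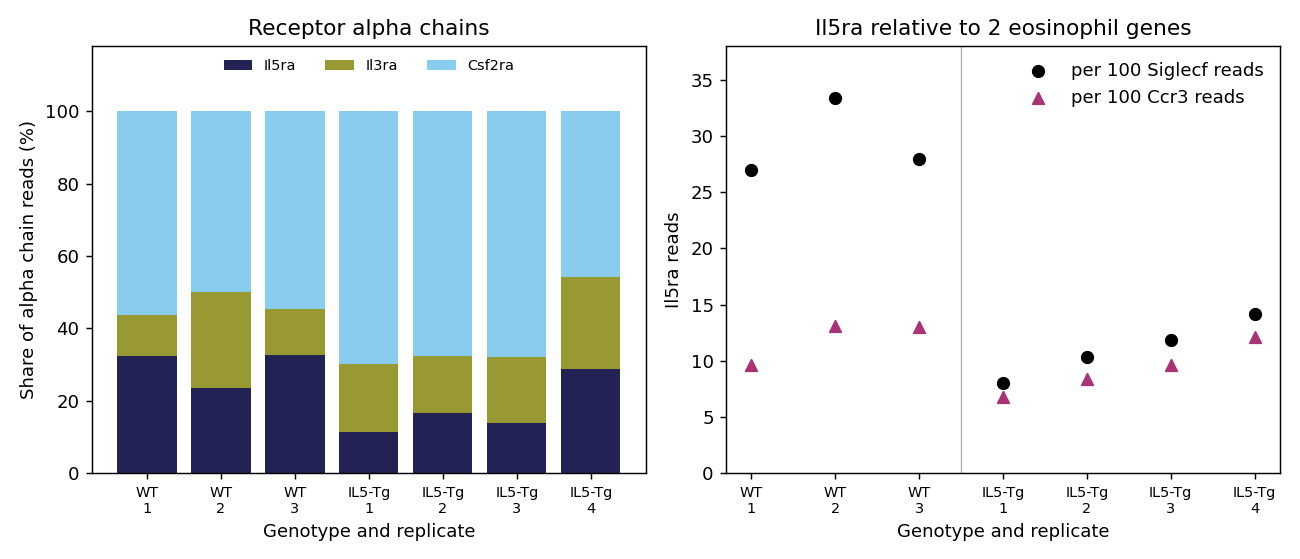
Left, the share of alpha chain reads (percent) that came from Il5ra, Il3ra and Csf2ra in each library. Right, Il5ra reads per 100 reads of Siglecf (circles) or of Ccr3 (triangles) in each library. The Siglecf ratio is 27.0 to 33.4 in WT and 8.03 to 14.2 in IL5-Tg, while the Ccr3 ratios overlap.

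Csf2rb and Csf2rb2, the beta chains, are neighbouring copies on chromosome 15. Csf2rb lies at 78325752 to 78353847 on the plus strand and Csf2rb2 at 78282507 to 78305721 on the minus strand (mm10, GENCODE vM21), 20 kb apart. Their coding sequences align over 2631 bases with 95.2% identity. Of the 42-base windows in their longest coding transcripts, 22.1% in Csf2rb and 23.2% in Csf2rb2 also occur in another annotated gene, nearly all in the other beta chain gene, so how the authors' counting divided such reads is uncertain. The 60 aligned coding bases with the most differences are shown because reads from such stretches tell the copies apart most clearly. Capitals mark the 13 bases that differ, and positions count from the first coding base, 304 to 363 in Csf2rb and 307 to 366 in Csf2rb2.
Csf2rb: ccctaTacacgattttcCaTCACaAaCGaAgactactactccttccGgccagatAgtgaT
Csf2rb2: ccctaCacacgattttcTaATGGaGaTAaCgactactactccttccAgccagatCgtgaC
The longest identical coding run is 242 bases, from position 2083 of Csf2rb, and is shown as a stretch where a mate of 42 bases fits both copies.
Csf2rb and Csf2rb2: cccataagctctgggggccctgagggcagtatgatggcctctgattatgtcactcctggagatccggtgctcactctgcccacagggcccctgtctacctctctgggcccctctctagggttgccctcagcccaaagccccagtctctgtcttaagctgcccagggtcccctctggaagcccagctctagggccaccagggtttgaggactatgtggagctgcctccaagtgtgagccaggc

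Both beta chain genes were expressed in every library, and neither passed the test. Csf2rb was at 452, 426 and 786 CPM across the WT libraries and at 635, 907, 564 and 437 CPM across the IL5-Tg libraries. WT replicate 3 and IL5-Tg replicate 2 were the high libraries, and the groups overlapped. WT averaged 554 ± 201 CPM (SD, n = 3) against 636 ± 199 CPM (SD, n = 4) in IL5-Tg, for a log2 fold change of 0.20 ± 0.33 (SE), with a 95% interval from -0.52 to 0.92 (edgeR adjusted p = 0.927). Csf2rb2 was at 148, 157 and 356 CPM across the WT libraries and at 285, 413, 242 and 181 CPM across the IL5-Tg libraries, with the same libraries high. Its log2 fold change was 0.35 ± 0.38 (SE), with a 95% interval from -0.50 to 1.19 (edgeR adjusted p = 0.894), and it was 0.90 without WT replicate 3 and 0.91 with the fibroblast marker level as a covariate (edgeR adjusted p = 0.436 and 0.239). These settings are not separate checks, since WT replicate 3 alone was low in fibroblast markers. Csf2rb2 had 32.8, 36.9 and 45.2 reads per 100 Csf2rb reads across the WT libraries, and 44.8, 45.5, 43.0 and 41.3 across the IL5-Tg libraries. WT replicates 1 and 2 were the lowest and WT replicate 3 lay among the IL5-Tg values (difference of log2 ratios 0.20, two-sided exact permutation p = 0.171, adjusted p = 0.229 over 4 ratios). Neutrophils also carry the beta common chain, and the sort left out Ly6G-positive cells. The 10 neutrophil markers in the table summed to 9279 to 10480 CPM in WT and 2523 to 4293 CPM in IL5-Tg libraries. Nearly all of that sum was Retnlg, which fell from 8843 to 10290 CPM in WT to 2432 to 4221 CPM in IL5-Tg (edgeR adjusted p = 0.0416). Among the 7 tested neutrophil markers the median log2 fold change was -1.58, and 2 were above 0. Ngp, a granule protein gene, was 1 of these 2. It rose from 0 to 0.362 CPM in WT to 26.3 to 33.5 CPM in IL5-Tg (edgeR adjusted p = 0.00311). S100a8 had a lower mean in IL5-Tg, like Retnlg, but did not pass (edgeR adjusted p = 0.407). It was at 157, 65.1 and 2.36 CPM across the WT libraries and 5.43 to 10.8 CPM in IL5-Tg. Ngp and S100a8 were named after their values were seen, and the part of these cells in the receptor chain values was not tested.

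Jak2 and Lyn, the kinases, varied as much within a group as between groups. Jak2, on chromosome 19 at 29251828 to 29313080, was at 92.5, 34.9 and 97.1 CPM across the WT libraries and at 66.4, 96.5, 72.8 and 117 CPM across the IL5-Tg libraries. WT replicate 2 was the low library, and the groups overlapped. The log2 fold change was 0.24 ± 0.36 (SE), with a 95% interval from -0.57 to 1.04 (edgeR adjusted p = 0.923), and -0.08 without WT replicate 2. Lyn, on chromosome 4 at 3678115 to 3813122, was at 268, 200 and 413 CPM across the WT libraries and at 224, 287, 186 and 318 CPM across the IL5-Tg libraries. WT replicate 3 was the highest library, and the log2 fold change was -0.21 ± 0.30 (SE), with a 95% interval from -0.89 to 0.46 (edgeR adjusted p = 0.917). It was 0.14 without WT replicate 3. An annotated gene, Gm11787, which was not a row of the table, shares 599 of the 3422 windows of 42 bases of the Lyn transcript.

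Stat5a and Stat5b, the transcription factor genes, lie 8.63 kb apart on chromosome 11, Stat5a at 100859351 to 100885169 on the plus strand and Stat5b at 100780731 to 100850724 on the minus strand (mm10, GENCODE vM21). Their coding sequences align with 90.9% identity, and 696 windows of 42 bases are shared, 18.1% of those in Stat5a and 13.5% of those in Stat5b. The 60 aligned coding bases that differ most, positions 85 to 144 in both, show how this pair can be told apart, with the 19 differing bases in capitals.
Stat5a: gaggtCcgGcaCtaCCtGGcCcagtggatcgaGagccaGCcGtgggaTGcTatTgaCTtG
Stat5b: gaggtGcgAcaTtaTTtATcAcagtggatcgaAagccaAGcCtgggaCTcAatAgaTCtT

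Stat5b was the more abundant of the pair in every library. Stat5a was at 28.3, 17.3 and 34.6 CPM across the WT libraries and at 23.3, 26.3, 30.5 and 20.1 CPM across the IL5-Tg libraries. The IL5-Tg values lay within the WT range, at a log2 fold change of -0.09 ± 0.31 (SE), with a 95% interval from -0.78 to 0.59 (edgeR adjusted p = 0.960). Stat5b was at 112, 121 and 176 CPM across the WT libraries and at 103, 122, 98.2 and 106 CPM across the IL5-Tg libraries. Of the IL5-Tg libraries 3 were below all WT libraries and IL5-Tg replicate 2 was not. The log2 fold change was -0.34 ± 0.24 (SE), with a 95% interval from -0.87 to 0.18 (edgeR adjusted p = 0.778), and -0.09 without WT replicate 3. There were 25.4, 14.3 and 19.7 Stat5a reads per 100 Stat5b reads in WT and 22.6, 21.6, 31.1 and 19.0 in IL5-Tg libraries (difference of log2 ratios 0.264, two-sided exact permutation p = 0.4, adjusted p = 0.4 over 4 ratios).

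**Figure D3:**
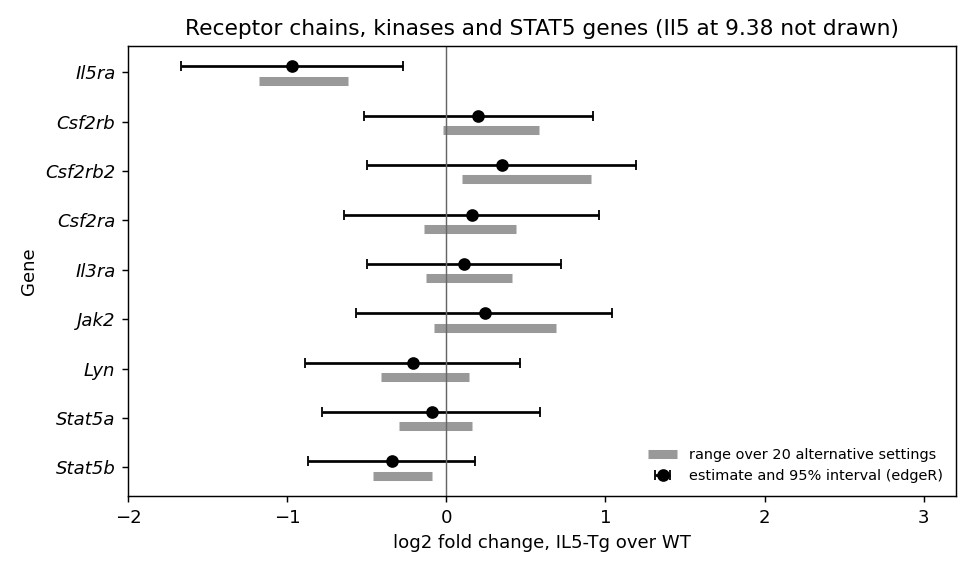
Log2 fold change, IL5-Tg over WT, of the 9 genes other than Il5. Points and whiskers are the edgeR estimate and its 95% interval, and grey bars the range of the estimate over 20 alternative settings. The interval of Il5ra, -1.67 to -0.27, lies below 0 without adjustment for the number of genes, and the other 8 intervals include 0.

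Compared per kilobase of transcript, the levels ranked the GM-CSF alpha chain and the beta common chain above the IL-5 alpha chain. In WT libraries Csf2ra was at 126 ± 34.5, Csf2rb at 113 ± 41.0 and Lyn at 84.9 ± 31.4 CPM per kb (SD, n = 3). Csf2rb2 followed at 46.5 ± 24.7, Il5ra at 36.4 ± 13.7, Il3ra at 30.2 ± 10.8 and Stat5b at 26.1 ± 6.63 CPM per kb. The ranges of neighbours in this order overlapped as far as Stat5b. Jak2, at 14.9 ± 6.89, was below Stat5b without overlap, Stat5a was at 6.87 ± 2.25, overlapping Jak2, and Il5 at 0.301 ± 0.521 CPM per kb was below all others.

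In IL5-Tg libraries Il5 came first, at 244 ± 32.2 CPM per kb (SD, n = 4), and its range did not overlap that of Csf2ra at 141 ± 54.5. Csf2rb at 130 ± 40.5, Lyn at 73.3 ± 17.2 and Csf2rb2 at 59.1 ± 20.7 followed with overlapping ranges. Il3ra at 32.6 ± 3.14, Stat5b at 20.6 ± 1.96, Il5ra at 18.6 ± 5.12 and Jak2 at 17.5 ± 4.61 CPM per kb were lower, and Il5ra overlapped both Stat5b and Jak2. Stat5a was the lowest, at 6.44 ± 1.14 CPM per kb. Lengths are those of the longest coding transcript of each gene. With the length of all annotated exons Il3ra and Stat5b changed places in WT, and no other place changed.

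**Figure D4:**
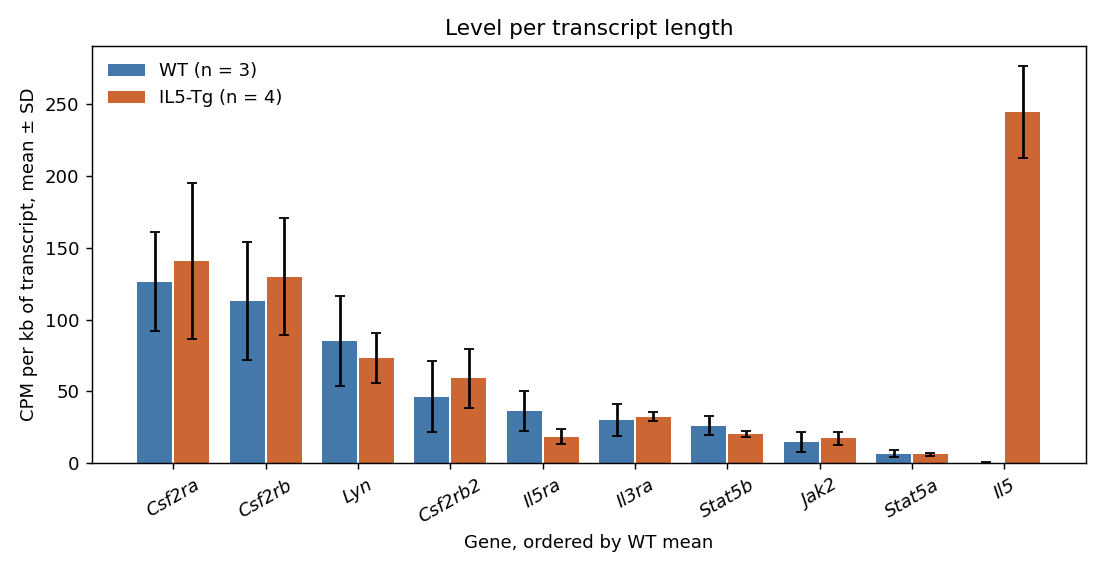
CPM per kilobase of the longest coding transcript, as means with SD over 3 WT and 4 IL5-Tg libraries, for genes ordered by their WT mean. Il5 is at 0.301 in WT and at 244 in IL5-Tg, above Csf2ra at 141.

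Genes whose pattern over the 7 libraries was closest to that of Il5ra were A630072M18Rik, Ing2, Tspan13 and Naip5. Likeness was the root mean squared difference of centred log2(CPM + 1) over the 7 libraries, among 9319 tested genes with a mean of at least 5 CPM, and it was 0.0999, 0.142, 0.160 and 0.161 for these genes. All 4 had lower means in IL5-Tg libraries, with log2 fold changes of -1.11, -1.02, -0.84 and -1.09, and none passed (edgeR adjusted p = 0.310 to 0.446). Their direction follows from choosing them by likeness to Il5ra in these same libraries. Closest to Csf2rb were Myadm, Crtc1, Nfatc1 and Samd10, at 0.0865 to 0.0986. Csf2rb2 was at 0.163 from Csf2rb, while Il5ra was at 0.660 from Csf2rb and at 0.408 from Lyn. Stat5a and Stat5b were at 0.315 from each other.

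The other genes of the pathway were grouped in 7 lists holding 80 genes, of which 75 were tested. In these lists 3 genes rose and 0 fell, against 0.410% called over all genes, and the joined median log2 fold change was 0.19. Across the 75 genes 15 had an unadjusted p under 0.05 (9.04% over all tested genes), and DESeq2 called 9 and limma-voom 1. None of the 8 other JAK kinase and STAT factor genes passed (median 0.02), with Stat4 at -1.56 (edgeR adjusted p = 0.474) and Jak1 at -0.28 (0.874) having the smallest p, and 1 had an unadjusted p under 0.05. None of the 8 Src and Tec family kinases and Syk passed (median 0.03), and Syk was at -0.55 (edgeR adjusted p = 0.744) and Btk at 0.49 (0.751), with 0 under an unadjusted p of 0.05. None of the 15 adaptor, PI3K, Ras and MAPK genes passed (median 0.18), with Pik3cd, the leukocyte PI3K catalytic subunit, at 0.74 (edgeR adjusted p = 0.538) and the adaptor Shc1 at 0.43 (0.723), and 1 had an unadjusted p under 0.05. DESeq2 and limma-voom called 0 genes in each of these 3 lists.

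Of 16 negative regulators 1 rose, Socs1, and 0 fell (median 0.25). Socs1 binds JAK kinases and blocks their activity, and it averaged 18.3 ± 1.61 CPM (SD, n = 3) in WT against 68.4 ± 14.4 CPM (SD, n = 4) in IL5-Tg. Its log2 fold change was 1.90 ± 0.26 (SE), at an edgeR adjusted p of 0.0165. Leaving out WT replicate 1 gave an adjusted p of 0.0953, and leaving out IL5-Tg replicate 2 or 3 gave 0.0844 or 0.0643. Socs2, a STAT5-induced inhibitor, had 19.9, 5.49 and 3.97 CPM across the WT libraries and 94.8, 92.0, 69.1 and 78.9 CPM across the IL5-Tg libraries, with no overlap. Its log2 fold change of 3.08 ± 0.54 (SE) had an edgeR adjusted p of 0.0502, just outside the threshold, and passed in 10 of 20 alternative settings. Cish, a classical STAT5 target and inhibitor, was at 199 ± 112 and 321 ± 87.1 CPM (log2 fold change 0.69, edgeR adjusted p = 0.670). Socs2 and Cish were named after their values were seen.

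Of 14 STAT5 targets 1 rose, Il4ra, and 0 fell, while the fold change was above 0 for 11 of them, at a median log2 value of 0.79. An unadjusted edgeR p under 0.05 was reached by 8 of the 14, in both directions, against 9.04% of all tested genes. DESeq2 called 6 and limma-voom 0. The list was chosen with earlier results of these data known, so its counts and median are no independent evidence. Il4ra, the receptor chain for IL-4 and IL-13, averaged 139 ± 19.4 CPM (SD, n = 3) in WT against 386 ± 66.2 CPM (SD, n = 4) in IL5-Tg. The log2 fold change was 1.48 ± 0.25 (SE), at an edgeR adjusted p of 0.0382. It passed in 12 of 20 alternative settings, and its adjusted p was 0.155, 0.0518 and 0.0594 without WT replicates 1, 2 and 3 and 0.209, 0.166 and 0.147 without IL5-Tg replicates 1, 2 and 3. With the number that opens the sample titles as a block the log2 fold change was 1.20 and the edgeR adjusted p 0.451. Only libraries whose number occurs in both genotypes inform that fold change. Other targets, named after their values were seen, did not pass and lay on both sides of 0. Bcl2l1, which encodes the survival protein BCL-xL, averaged 23.2 ± 12.5 CPM in WT against 80.4 ± 20.1 CPM in IL5-Tg (log2 fold change 1.79, edgeR adjusted p = 0.167). The cyclin gene Ccnd2 was at 1.46 (edgeR adjusted p = 0.0912) and the cytokine gene Osm at 1.38 (0.188) on the same scale. Bcl6, a gene that STAT5 is known to repress, averaged 22.4 ± 5.86 CPM in WT against 9.03 ± 1.43 CPM in IL5-Tg (log2 fold change -1.31, edgeR adjusted p = 0.176). The kinase gene Pim2 averaged 26 ± 16.4 CPM in WT against 70.9 ± 21.3 CPM in IL5-Tg (log2 fold change 1.45, edgeR adjusted p = 0.299). Mcl1, another survival gene, was at -0.80 (edgeR adjusted p = 0.415) and Pim1, a kinase gene of the same family as Pim2, at -0.64 (0.656). The groups did not overlap for 5 higher and 2 lower targets, against 4.76% and 4.6% of all tested genes.

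Of 17 tested genes for other cytokine receptors 2 rose, Il4ra and Il10ra, and 0 fell (median 0.17). Il10ra, the ligand-binding chain for IL-10, averaged 64.3 ± 2.93 CPM (SD, n = 3) in WT against 221 ± 51.4 CPM (SD, n = 4) in IL5-Tg. The log2 fold change was 1.78 ± 0.25 (SE), at an edgeR adjusted p of 0.0172. Leaving out WT replicate 1 gave an adjusted p of 0.12, and leaving out IL5-Tg replicate 1, 2 or 3 gave 0.098, 0.0782 or 0.0589. With the number that opens the sample titles as a block, which WT and IL5-Tg libraries share in 2 cases, the log2 fold change was 1.54 and the edgeR adjusted p 0.129. Only the libraries of those 2 cases inform that fold change. Il1rl1, the IL-33 receptor of type 2 immune cells, had a log2 fold change of 1.30 with no overlap (edgeR adjusted p = 0.185). Lower with no overlap were Csf3r, the G-CSF receptor of neutrophils, at -1.63 (edgeR adjusted p = 0.327) and Ifnar1, a type I interferon receptor chain, at -0.84 (0.287). These 3 did not pass and were named after their values were seen. Mast cells and basophils also carry IL-3 and IL-33 receptors, and their 11 markers summed to 238 to 540 CPM in WT and 133 to 143 CPM in IL5-Tg libraries. The largest part in WT was Hdc, the histamine-forming enzyme, which fell from 134 to 391 CPM in WT to 37.5 to 66.8 CPM in IL5-Tg (edgeR adjusted p = 0.0236). Among the 7 tested markers of these cells the median log2 fold change was -2.29, and 1 was above 0. The groups did not overlap for 5 lower markers, of which only Hdc passed, and for 1 higher marker. The higher marker was the transcription factor gene Gata2, at 14.3 to 35.3 CPM in WT and 56.3 to 74.9 CPM in IL5-Tg (edgeR adjusted p = 0.126). The part of these cells in the receptor values was not tested.

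**Figure D5:**
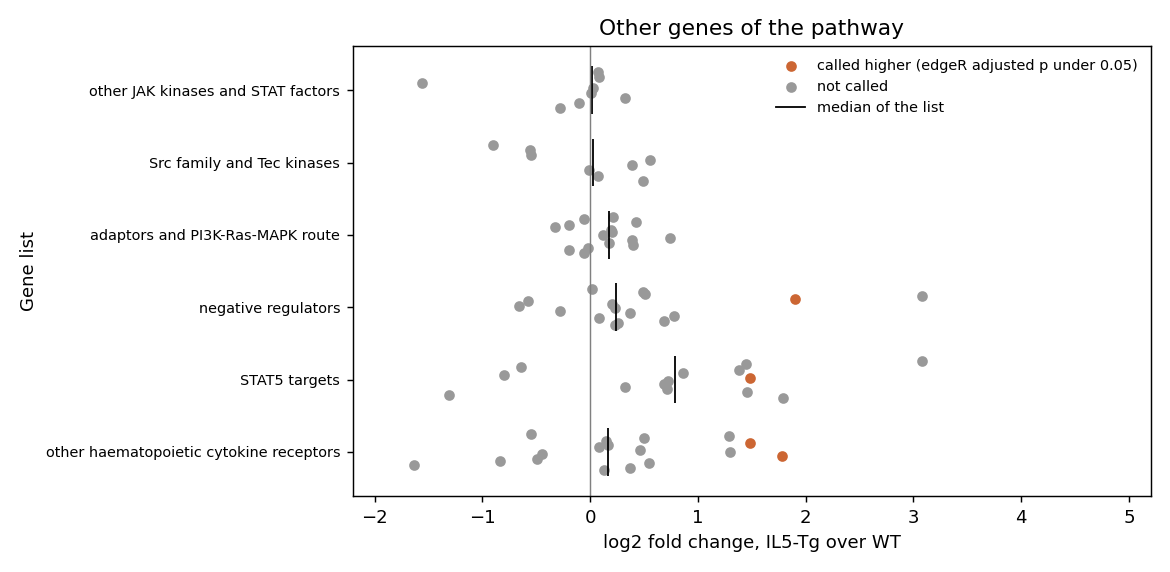
Log2 fold change, IL5-Tg over WT, of each tested gene in 6 lists of other pathway genes, with the median of each list as a black line. The called genes are Socs1 at 1.90, Il4ra at 1.48 (in 2 lists) and Il10ra at 1.78, and the STAT5 target list has the highest median, 0.79. The lists were chosen with earlier results of these data known.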

How the data were processed

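The authors deposited a table of read counts, whole numbers with 1 column per library and no sign of normalization, since column totals differ. The submitters' processing notes list bcl2fastq 2.20, Bowtie, STAR and the mm10 build without their roles. The sources used here name no counting program, annotation or strand setting. The 2 rows naming no gene took 9.15% to 18.2% and 0.751% to 0.943% of reads and were left out. The chi-square per gene between libraries of a group was at least 27.5, so none was counted as a repeat.

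The main test was edgeR 4.0.16 (R 4.3.3) with TMM, filterByExpr, robust estimation and all 7 libraries in a model of genotype alone, adjusted by Benjamini-Hochberg over all tested genes; the common biological coefficient of variation was 52.5%. Ratios used an offset of 0.5 reads and two-sided exact permutation tests. The procedure was tested on simulated data. GENCODE vM21 (mm10) gave positions, lengths and sequences for all 10 genes by symbol; alignments used Biopython 1.88. The genes and lists were chosen with earlier results of these data known. Every member was named. Pathway lists gave their called genes, up to 4 by p, or the 2 with the smallest p. Cell type lists gave their summed CPM and the defining markers without reads or the 2 genes with the highest mean CPM. Most genes outside these rules are marked in the text as named after their values were seen. Alternatives included DESeq2 1.42.0 and limma 3.58.1 (voom). Replicate numbers follow accession order and only name a library.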

Additional observations from a re-analysis of the deposited data

How the results depend on the processing

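Il5 was the 1 called member under every alternative except without IL5-Tg replicates 1, 2 or 3, where 0 were called by edgeR at unadjusted p-values of Il5 of 7.6e-05, 7.38e-05 and 9.18e-05, so the count ran from 0 to 1. Over all genes 51 were called, 16 to 97 when a library was left out, 224 by DESeq2, 22 by limma-voom, 92 with counts divided by the most common low count, and 111 and 98 with fibroblast or macrophage marker levels as covariates. Among pathway list genes the 3 called became 0 to 5 when a library was left out, 9 by DESeq2, 1 by limma-voom, and 7 with either covariate. The cause was not tested. No alternative called any member but Il5. Signs changed only for values that did not pass: with a library left out, log2 fold changes ran from -0.02 (without IL5-Tg replicate 2) to 0.56 for Csf2rb, -0.03 (without IL5-Tg replicate 2) to 0.42 for Csf2ra, -0.13 (without WT replicate 1) to 0.41 for Il3ra, and -0.08 (without WT replicate 2) to 0.5 for Jak2, and from -0.41 to 0.14 for Lyn, -0.3 to 0.16 for Stat5a and -0.44 to 0.03 for Jak1, the highest without WT replicate 3 for these 3. They also changed for Stat5a (0.04) by limma-voom, Lyn (0.11), Stat5a (0.14) and Jak1 (0.02) with the fibroblast covariate, and Lyn (0.07) and Stat5a (0.09) with the macrophage covariate. WT replicate 3 alone was low in fibroblast markers, so leaving it out and the fibroblast covariate are not separate checks. Replicate numbers follow accession order and pair nothing. With the number that opens each sample's title code as a replicate block 52 genes were called, Il5 among them, and Csf2ra was at -0.14, Lyn at 0.07 and Stat5a at 0.16, while Il4ra and Il10ra were lost (edgeR adjusted p = 0.451 and 0.129). Fold changes of that fit rest on fewer libraries, those whose title number occurs in both genotypes, and the cause of these losses was not tested. By limma-voom Socs1 (adjusted p = 0.131) and Il4ra (0.0557) were lost. The 4 within-library ratios kept their sign throughout. Their adjusted p stayed above 0.05, but this decides nothing, since the exact test could hardly pass. The smallest p that 35 splits allow, 0.0286, became 0.114 after adjustment for the ratio that reached it. With a library left out there are fewer splits, and no adjusted p under 0.05 was possible.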
